A study of Mus musculus with 12 samples.

Results

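Cathepsin RNAs were described in 12 RNA-seq libraries of 4 lines of mouse embryonic fibroblasts (MEFs). The group holds 10 genes (*Ctsa*, *Ctsb*, *Ctsc*, *Ctsd*, *Ctsf*, *Ctsh*, *Ctsk*, *Ctsl*, *Ctss* and *Ctsz*) of 24453 in the gene count table, and all 10 were found there. The genes were chosen by name, with the level of *Ctsk* known: it was far lower in the PNPase knockout clones than in rho0 cells, so *Ctsk* is described here with no test, and the knockout clones are set beside rho0 by their values alone. PNPase, encoded by *Pnpt1*, is a ribonuclease of mitochondria.

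All lines are MEFs of strain C57BL6/J with the genotype *Pnpt1* neo-flox/neo-flox (*Pnpt1* fl/fl), immortalized with SV-40 large T-antigen and grown with 50 µg/mL uridine. TM6 is the untreated parental line. Cells of the rho0 line, labelled mtDNA deficient, were made from TM6 with 750 ng/mL ditercalinium dichloride dihydrochloride for 3 weeks and then grown from a single cell colony, and they keep *Pnpt1*. PKO-1 and PKO-6 are PNPase knockout clones made from TM6 with an adenovirus expressing Cre recombinase, each grown from a single cell colony. The study found no mtDNA by quantitative PCR and no respiration in either clone, as in rho0, so all derived lines lack mtDNA. Each line had 3 biological replicates. Since each derived line is 1 clone, treatment and clone cannot be told apart, and tests between lines compare these clones. The ages of the embryos and cultures were not given in the sources used here.

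Cathepsins are proteases that work mostly in lysosomes, the acid compartments in which cells break down proteins. Most of them (B, C, F, H, K, L, S and Z) are cysteine proteases of the papain type, cathepsin D is an aspartic protease, and cathepsin A is a serine carboxypeptidase. They are made as inactive precursors, carried to lysosomes largely by receptors for mannose 6-phosphate, activated by cleavage and held in check by cystatins. Cathepsin K is best known from osteoclasts, the bone-resorbing cells, where it cuts collagen, and fibroblasts also make it.

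Depth was 47164860 to 67991378 counts per library, and *Rn45s*, the ribosomal RNA precursor, held 12.2% to 19.6% of them. *Pnpt1*, counted over the whole gene although Cre removes only exon 2, had means of 3131 normalized counts in TM6, 5271 in rho0, 1240 in PKO-1 and 1944 in PKO-6. Library 1 of rho0 stood apart from libraries 2 and 3 of its line, with a chi-square per gene of 62.3 and 42.1 against 4.53 between those 2. Libraries 2 and 3 of PKO-6 also differed more (57.9) than the pairs of TM6 or PKO-1 (8.9 to 25.5). Of 10 fibroblast markers, 9 had 10 counts or more in at least 1 library and *Thy1* did not. The summed level of the fibroblast markers was 6624 to 6823 TPM (transcripts scaled to the library, a level per length) in TM6, 3764 to 3866 in rho0, 6793 to 6958 in PKO-1 and 3024 to 3344 in PKO-6. *Vim* and *S100a4* held most of that sum in TM6 (2300 and 2253 TPM), and single markers went different ways. *Fn1* was higher than in TM6 (429 TPM) in rho0, PKO-1 and PKO-6 (898, 954 and 778). In PKO-1, where the sum was near that of TM6, *Col1a1* was lower (493 against 960 TPM) and *Pdgfra* higher (14.6 against 1.62). The part of these markers in the results below was not tested.

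The stretches before the starts of *Ctsk* and *Ctsc* are shown because these genes, with *Ctsf*, had the widest range of levels among the cathepsins, so they were picked after their values were seen. Each is 250 bases, 5′ to 3′, on the plus strand of GRCm38.p6 from RefSeq: chr3:95498960-95499209 for *Ctsk* and chr7:88277835-88278084 for *Ctsc*. Capitals mark CpG, the dinucleotide that is methylated in mammalian DNA.
Ctsk: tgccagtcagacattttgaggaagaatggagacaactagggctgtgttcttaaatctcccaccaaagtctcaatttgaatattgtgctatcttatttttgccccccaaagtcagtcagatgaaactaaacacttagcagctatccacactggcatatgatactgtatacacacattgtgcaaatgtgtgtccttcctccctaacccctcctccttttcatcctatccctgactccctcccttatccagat
Ctsc: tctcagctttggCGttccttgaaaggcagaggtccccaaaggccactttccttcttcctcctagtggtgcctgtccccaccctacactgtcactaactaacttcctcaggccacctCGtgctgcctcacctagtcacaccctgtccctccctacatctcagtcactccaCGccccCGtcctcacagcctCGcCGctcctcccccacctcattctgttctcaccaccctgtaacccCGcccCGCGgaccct
The stretch before *Ctsk* held 0 CpG and 43.2% G and C. Of 32851 RefSeq promoters of the same length, 7.87% also held no CpG, and the median was 6. The stretch before *Ctsc* held 9 CpG, and that before *Ctsf* held 17, more than 76.5% of promoters, although it ends 36 bases past the start that the count files give. Entries were found for 8 of the 10 genes, not for *Ctsb* and *Ctsh*. The E-box CACGTG, the core of the motif that TFEB, a regulator of lysosomal genes, binds, was found in the stretches before *Ctsf* and *Ctsl*, 2 times before *Ctsd* and before the second of the 2 starts of *Ctsa*, and 6.02% of all promoters held it (both strands, the motif being its own reverse complement). Neither TGACTCA, bound by AP-1, nor TGACGTCA, the cAMP response element, was found in any of them on either strand (4.46% and 1.55% of all promoters). These are matches of letters and not mapped binding sites.

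*Ctsk* is 1 transcript of 8 exons at chr3:95499210-95509387 on the plus strand (mm10, GRCm38). In TM6 its 3 libraries held 179, 191 and 200 normalized counts (counts divided by a scaling factor per library). In rho0 they held 1342, 1115 and 1279. PKO-1 held 15.5, 12.8 and 10.3. PKO-6 held 9.83, 4.15 and 17.5. The rho0 libraries were the highest, TM6 stood between, and both clones lay near the bottom and overlapped each other. Mean levels were 1245 ± 117 (SD, n = 3) in rho0, 190 ± 10.8 in TM6, 12.9 ± 2.57 in PKO-1 and 10.5 ± 6.68 in PKO-6. Cells of rho0 thus averaged 6.55-fold the level of TM6, 96.8-fold that of PKO-1 (95% counting interval 70.3 to 141) and 119-fold that of PKO-6 (84.4 to 171). TM6 was 14.8-fold above PKO-1 and 18.2-fold above PKO-6. A ratio of 1.23 separated PKO-1 from PKO-6, with an interval of 0.731 to 1.99. These intervals cover counting error only, and the clones' values rest on 35 and 34 counts in all.

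Defining markers of osteoclasts, the cells best known for cathepsin K, were absent or low, and others were present. *Ocstamp* and *Dcstamp*, which osteoclasts need to fuse, had 0 counts in every library, and *Acp5*, *Calcr* and *Mmp9* stayed under 10 counts. *Tnfrsf11a*, the receptor RANK, held 248 to 399 normalized counts over the 12 libraries, with means of 343 ± 13.7 in TM6, 340 ± 7.66 in rho0, 252 ± 5.58 in PKO-1 and 378 ± 19 in PKO-6. *Itgb3*, integrin β3, held 103 ± 7.08, 52.8 ± 18.3, 151 ± 30 and 266 ± 58.7 in the same order, and against TM6 it was lower in rho0 (log2 fold change -0.94, adjusted p = 0.00303) and higher in PKO-6 (1.37, adjusted p = 5.45e-05). The summed level of the 8 osteoclast markers was 2.73 to 3.22 TPM in TM6, 2.36 to 2.6 in rho0, 2.25 to 2.7 in PKO-1 and 3.45 to 4.04 in PKO-6. Its part in the levels of *Ctsk* was not tested. Among 10 macrophage markers, *Adgre1* was at 0, and *Ptprc*, *Itgam*, *Tyrobp*, *Aif1* and *Fcgr1* were under 10 counts in every library. *Cd68*, a glycoprotein of lysosomes, held 72.6 to 200 normalized counts in the 12 libraries and was higher in PKO-6 than in TM6 (log2 fold change 1.02, adjusted p = 0.0002). The summed level of the list was 2.32 to 3.41 TPM in TM6, 2.71 to 4.68 in rho0, 2.41 to 3.13 in PKO-1 and 6.64 to 7.57 in PKO-6, where *Lyz2*, a lysozyme, held 50.8 ± 13.8 normalized counts. Markers of epithelial cells summed to 6.23 to 6.55 TPM in TM6, 10.2 to 11.7 in rho0, 19.2 to 20.2 in PKO-1 and 5.27 to 5.51 in PKO-6. Among them, *Esrp1* (449 ± 19.1 normalized counts) and *Epcam* (88 ± 14.7) were higher in PKO-6 than in TM6, where they averaged 0.288 and 4.35, and *Krt18* was higher in rho0 and PKO-1 and lower in PKO-6. *Krt18* held most of the sum in TM6, rho0 and PKO-1, with means of 6.02, 10.5 and 19.4 TPM. *Krt8*, at low counts, was lower in rho0 (1.39 ± 0.476 normalized counts, against 11.8 ± 6.1 in TM6) and was not called in the clones against TM6. Markers of endothelial cells summed to 8.4 to 10.4 TPM in TM6, 12.3 to 13.6 in rho0, 9.55 to 10.8 in PKO-1 and 16.2 to 18.6 in PKO-6. *Egfl7* held most of that sum, with means of 8.95, 12.6, 9.6 and 15.8 TPM in the same order. *Vwf* was higher in both clones (112 ± 14.3 and 163 ± 46.7 normalized counts, against 4.64 ± 1.45 in TM6). *Kdr* was lower than in TM6 in rho0 and PKO-1 (log2 fold changes -2.10 and -1.32) and higher in PKO-6 (1.36). The part of these markers in the cathepsin levels was not tested.

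**Figure D1:**
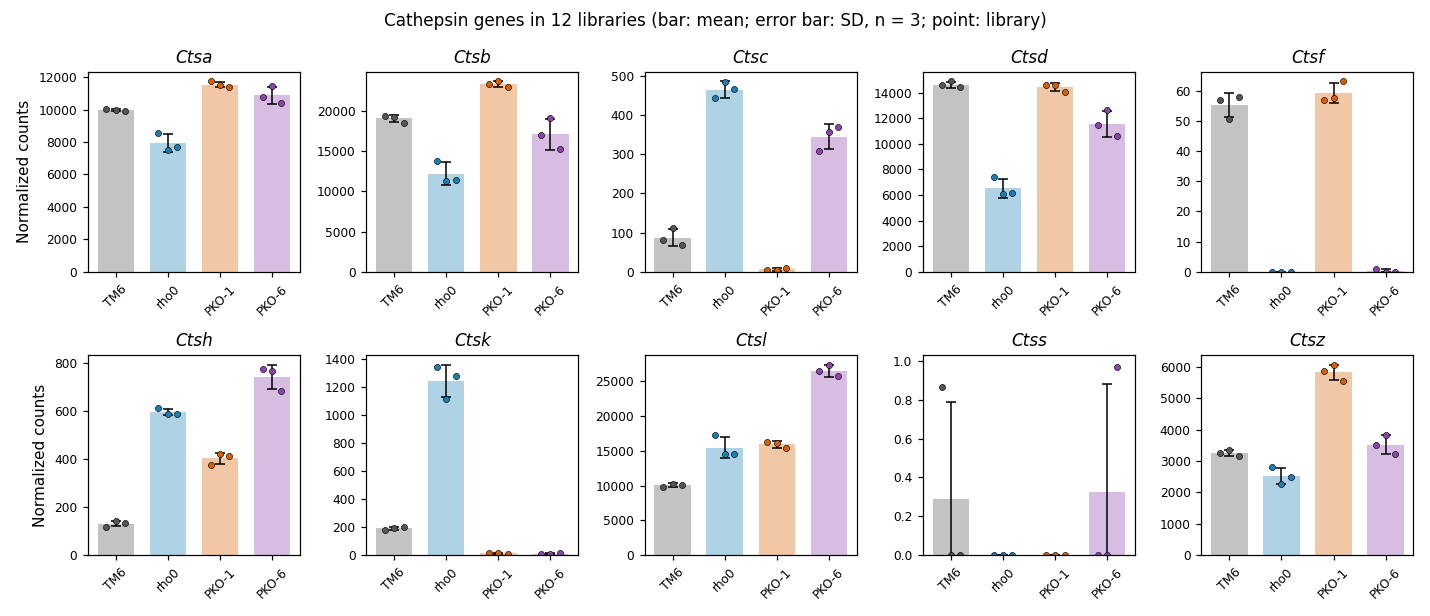
Normalized counts (vertical axis, linear from 0, a scale of its own for each gene) of the 10 cathepsin genes in TM6, rho0, PKO-1 and PKO-6. Bars are means, error bars SD (n = 3) and points libraries. *Ctsk* was highest in rho0, *Ctsf* was present in TM6 and PKO-1, and *Ctsc* was lowest in PKO-1.

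*Ctsk* lay apart from its neighbours on the chromosome. *Arnt*, which ends 1970 bases before *Ctsk* and encodes the partner of the aryl hydrocarbon receptor, held 6075 ± 120 normalized counts in TM6, 4771 ± 172 in rho0, 5269 ± 135 in PKO-1 and 4322 ± 110 in PKO-6. None of its differences in the 4 comparisons passed the thresholds used here, an adjusted p under 0.01 with a log2 fold change beyond 0.5 either way. *Golph3l*, the next expressed gene on the other side, stayed between 951 and 1475 on average and was not called either. *Ctss*, which encodes the cathepsin of antigen-presenting cells and starts 17398 bases after *Ctsk* ends, had 0 counts in 10 libraries and 1 count in the other 2. *Gm4349*, upstream of *Arnt*, had its highest mean in rho0 (54.5 ± 30.1, against 22.9 ± 7.56 in TM6, 17.9 ± 5.91 in PKO-6 and 15.4 ± 6.75 in PKO-1), but its libraries varied widely and it was not called (adjusted p = 0.0214 in rho0 against TM6). The median log2 fold change of all tested genes of chromosome 3 was -0.17 in rho0, 0.04 in PKO-1 and 0.06 in PKO-6, each against TM6.

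The 5 genes with levels most like those of *Ctsk* were *Morc4*, *Pde8a*, *AI314180*, *Hmox1* and *Fam129a*, by Pearson's r of log2 CPM (counts scaled to the library) over the 12 libraries, among 11204 genes that averaged 100 normalized counts or more. Their r was 0.984, 0.976, 0.974, 0.974 and 0.967. The 12 libraries come from 4 lines, so these values mostly compare 4 means. All 5 were highest in rho0 and next highest in TM6. *Fam129a* had the widest range, with 1122 ± 21.6 normalized counts in TM6, 2135 ± 127 in rho0, 57.9 ± 0.916 in PKO-1 and 30.7 ± 1.53 in PKO-6. *Hmox1*, heme oxygenase, held 3057 ± 82.6, 4254 ± 352, 1212 ± 46.9 and 1393 ± 34.3 in the same order. Of the 8 other cathepsins with counts to compare, *Ctsc* had the highest r with *Ctsk* (0.47) and *Ctsa* the lowest (-0.92).

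The other 9 cathepsins were compared between lines with edgeR's quasi-likelihood test over 14026 genes. *Ctss* was too low to be tested. *Ctsf* passed the filter on low counts only through TM6 and PKO-1, where it was high, so it is left out of the counts and medians here and its values are given below. In rho0 against TM6, 3 of the other 7 rose (*Ctsc*, *Ctsh* and *Ctsl*) and 2 fell (*Ctsb* and *Ctsd*), where 42.1% of all tested genes were called, 20.7% as higher and 21.4% as lower. In PKO-1 against TM6, 3 rose (*Ctsh*, *Ctsl* and *Ctsz*) and 1 fell (*Ctsc*), beside 34.3% of all genes called, 16.4% higher and 17.9% lower. In PKO-6 against TM6, 3 rose (*Ctsc*, *Ctsh* and *Ctsl*) and 0 fell, beside 41.3% of all genes, 21.9% higher and 19.4% lower. With so many genes called, these counts do not set the cathepsins apart. The median log2 fold change of the 7 was -0.33, 0.29 and 0.12 in the 3 comparisons, against 0.02, 0 and 0.01 over all tested genes. The 3 comparisons share the TM6 libraries.

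*Ctsh* and *Ctsl* rose in all 3 derived lines. *Ctsh*, an aminopeptidase, held 118, 141 and 132 normalized counts in TM6, 610, 588 and 585 in rho0, 374, 419 and 412 in PKO-1, and 775, 765 and 683 in PKO-6. No derived library overlapped TM6. Its log2 fold change against TM6 was 2.19 ± 0.0936 (SE; adjusted p = 1.51e-10) in rho0, 1.62 ± 0.0942 (adjusted p = 4.16e-09) in PKO-1 and 2.51 ± 0.0934 (adjusted p = 2.76e-11) in PKO-6. *Ctsl*, a broad endopeptidase of lysosomes, held 9759, 10290 and 10056 normalized counts in TM6. It reached 17239, 14601 and 14552 in rho0, 16341, 16167 and 15380 in PKO-1, and 26444, 27430 and 25720 in PKO-6. The PKO-6 libraries were the highest, and those of rho0 and PKO-1 overlapped. Its log2 fold change was 0.62 ± 0.0666 in rho0 (adjusted p = 1.52e-06), 0.67 ± 0.0666 in PKO-1 (adjusted p = 9.91e-07) and 1.40 ± 0.0675 in PKO-6 (adjusted p = 3.79e-10). Library 1 of rho0, which stood apart, was the highest of its line for *Ctsl*. Without it the value in rho0 was 0.52, still called but close to the size threshold of 0.5.

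*Ctsb* and *Ctsd* fell in rho0. *Ctsd*, the main aspartic protease of lysosomes, held 14604, 14878 and 14400 normalized counts in TM6 and 7392, 6095 and 6119 in rho0. Its log2 fold change there was -1.16 ± 0.0785 (adjusted p = 1.44e-08). In PKO-1 it held 14616, 14560 and 14083, within the range of TM6 for its 2 higher libraries, and the log2 fold change was -0.02 ± 0.0772 (adjusted p = 0.83). In PKO-6 it held 11457, 12623 and 10597, below every TM6 library, but its log2 fold change of -0.34 ± 0.0773 did not reach the size threshold (adjusted p = 0.00136). *Ctsb*, which cuts both inside proteins and from their ends, held 19349, 19280 and 18525 in TM6 and 13823, 11237 and 11449 in rho0, with a log2 fold change of -0.65 ± 0.0869 (adjusted p = 1.46e-05). Library 1 of rho0, which stood apart, was the highest of its line for both genes, and leaving out single libraries gave -1.28 to -1.14 for *Ctsd* and -0.76 to -0.62 for *Ctsb*. In the knockout clones *Ctsb* was not called, at 0.29 ± 0.0865 in PKO-1 and -0.16 ± 0.0865 in PKO-6.

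*Ctsa* and *Ctsz* moved less. *Ctsa*, whose protein also shields β-galactosidase and neuraminidase in lysosomes, was called in no comparison, with log2 fold changes against TM6 of -0.33 ± 0.0563 in rho0, 0.21 ± 0.0561 in PKO-1 and 0.12 ± 0.0561 in PKO-6. Its means ranged from 7932 ± 552 normalized counts in rho0 to 11547 ± 173 in PKO-1. *Ctsz*, a carboxypeptidase, held 3265, 3354 and 3157 normalized counts in TM6, 2800, 2275 and 2476 in rho0, 5868, 6061 and 5570 in PKO-1, and 3508, 3825 and 3240 in PKO-6. PKO-1 stood above all other lines. Its log2 fold change against TM6 was 0.84 ± 0.0757 in PKO-1 (adjusted p = 3.66e-07), -0.37 ± 0.0763 in rho0 and 0.11 ± 0.0756 in PKO-6.

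**Figure D2:**
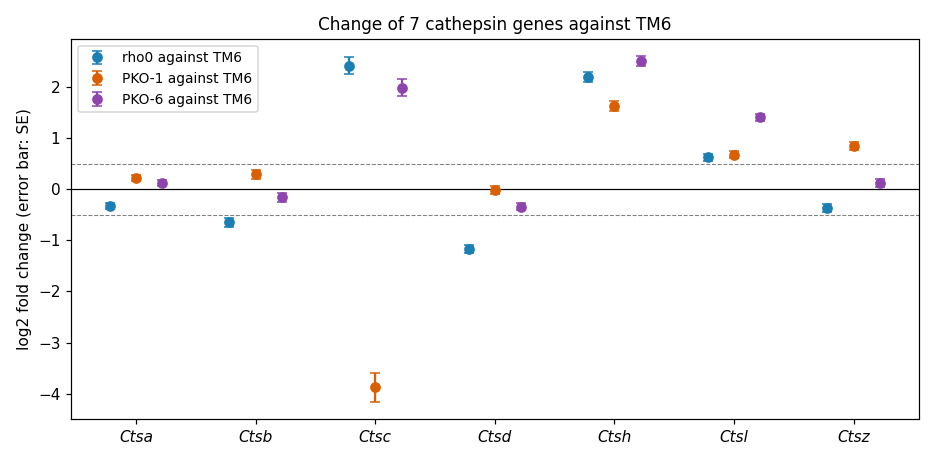
Log2 fold change against TM6 (vertical axis; error bars SE) of 7 tested cathepsin genes in rho0, PKO-1 and PKO-6, with dashed lines at the size threshold of 0.5. *Ctsk*, *Ctss* and *Ctsf* are left out, the last because rho0 had no counts. *Ctsc* lay at 2.42 and 1.98 in rho0 and PKO-6 and at -3.87 in PKO-1, while *Ctsh* and *Ctsl* were above 0.5 in every line.

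*Ctsc* and *Ctsf* gave the widest differences. *Ctsc* encodes dipeptidyl peptidase 1, which activates serine proteases of immune cells, and lies at chr7:88278085-88315861 on the plus strand. It held 80.4, 112 and 68.8 normalized counts in TM6, 443, 486 and 466 in rho0, 3.57, 4.26 and 9.31 in PKO-1, and 308, 358 and 369 in PKO-6. No pair of lines overlapped. Its mean was 5.34-fold that of TM6 in rho0 (log2 fold change 2.42 ± 0.168, adjusted p = 1.94e-08) and 3.97-fold in PKO-6 (1.98 ± 0.168, adjusted p = 1.3e-07). In PKO-1 it was 15.2-fold lower than in TM6, from 16 counts in all (-3.87 ± 0.289, adjusted p = 5.38e-08). *Ctsf* lies at chr19:4855129-4860912 on the plus strand. It held 57.1, 50.6 and 57.8 normalized counts in TM6 and 57.1, 57.5 and 63.1 in PKO-1. It had 0 counts in each rho0 library, and 1 count in library 1 of PKO-6 and 0 in the other 2. TM6 was at least 52.1-fold higher than rho0, taking 3 counts over the group as the floor, and the ratio of TM6 to PKO-6 was 178 with a 95% counting interval of 31.5 to 7055, which rests on that 1 count: without library 1, PKO-6 also had 0 counts. PKO-1 did not differ from TM6 beyond its error (log2 fold change 0.10 ± 0.215, adjusted p = 0.696).

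The knockout clones thus differed from each other for some cathepsins, and this difference was tested directly. Of the 7 genes, 1 was higher in PKO-1 than in PKO-6 (*Ctsz*) and 3 were lower (*Ctsc*, *Ctsh* and *Ctsl*), beside 29.1% of all tested genes called, 11.5% higher and 17.6% lower. The median log2 fold change of the 7 was 0.09, against -0.01 over all genes. *Ctsc* was 60.4-fold higher in PKO-6 (log2 fold change -5.86 ± 0.256, adjusted p = 2.95e-10). *Ctsf*, given as a description, was higher in PKO-1, with a ratio of 191 to the 1 count of PKO-6 (interval 33.8 to 7590). The log2 fold change was -0.88 ± 0.0858 for *Ctsh* (adjusted p = 9.17e-07), -0.73 ± 0.0665 for *Ctsl* (adjusted p = 4.73e-07) and 0.73 ± 0.0755 for *Ctsz* (adjusted p = 1.77e-06). Chromosomes 13 and 9, which hold *Ctsl* and *Ctsh*, had median log2 fold changes of -0.41 and -0.37 between the clones. With the chromosome median taken off, *Ctsl* was at -0.32 and no longer called, and *Ctsh* was at -0.52 and still called. *Cdc14b*, *Aaed1* and *Cdk20*, near *Ctsl*, were also lower in PKO-1, at -0.91, -1.03 and -1.15 on the log2 scale, while *1810034E14Rik* was at -0.21 and not called. Near *Ctsh*, *Morf4l1* and *Adamts7* were at -0.02 and -0.43 and not called, and *Tbc1d2b* was at -0.56 and called. The part of chromosome position in these differences was not tested.

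Beside rho0, the clones had higher levels of 4 cathepsins. Their means, as log2 differences from rho0 and with no test, were 0.54 in PKO-1 and 0.46 in PKO-6 for *Ctsa*, 0.94 and 0.49 for *Ctsb*, 1.14 and 0.82 for *Ctsd*, and 1.21 and 0.49 for *Ctsz*. *Ctsk* was at -6.60 and -6.89, and *Ctsc* at -6.35 and -0.43. *Ctsh* was lower in PKO-1 (-0.57) and higher in PKO-6 (0.32) than in rho0, and *Ctsl* was near rho0 in PKO-1 (0.05) and higher in PKO-6 (0.78).

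Some genes around *Ctsc* and *Ctsf* differed between lines and others did not. *Rab38*, a GTPase of lysosome-related organelles that starts 114411 bases after *Ctsc* ends, held 6.4 ± 3.27 normalized counts in TM6, 36.4 ± 7.91 in rho0, 6.86 ± 3.29 in PKO-1 and 54.4 ± 4.11 in PKO-6. It was higher than TM6 in rho0 (log2 fold change 2.46) and PKO-6 (3.04), as *Ctsc* was, but was not called in PKO-1 (0.08). *Rab38* passed the filter on low counts only through rho0 and PKO-6, where it was high, so these calls are no support for a shared change. *Tmem135*, the next gene, stayed between 710 and 939 on average and was called in no comparison. *Nox4*, an NADPH oxidase on the other side, fell in all 3 derived lines (log2 fold changes -0.69, -1.38 and -1.79 in rho0, PKO-1 and PKO-6). Beside *Ctsf*, *Ccs*, the copper chaperone of superoxide dismutase, held 657 to 731 on average and was not called. *Ccdc87* (2.40, 2.02 and 2.49) and *Bbs1*, a gene of the primary cilium (0.97, 1.14 and 1.19), rose in all 3. *Ccdc87* passed the filter only through the derived lines, averaging 2.48 ± 0.446 normalized counts in TM6 and 10.4 to 14.6 in those lines. *Actn3*, 303 bases from *Ctsf* and on the other strand, was higher in PKO-1 than in PKO-6 (log2 fold change 1.29, adjusted p = 0.000471), with means of 44.7 ± 6.52 and 18 ± 3.55. Genes most like *Ctsc* and *Ctsf* were looked up after their values were seen. *Sema4f* (r = 0.992), *Dip2c* and *Sash1* were the nearest to *Ctsc*, and *Glt8d2* (r = 0.995), *Stard8* and *Fam114a1* to *Ctsf*. *Sema4f* held 137 ± 18.4, 630 ± 28.4, 13 ± 6.89 and 603 ± 49.4 normalized counts in TM6, rho0, PKO-1 and PKO-6.

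**Figure D3:**
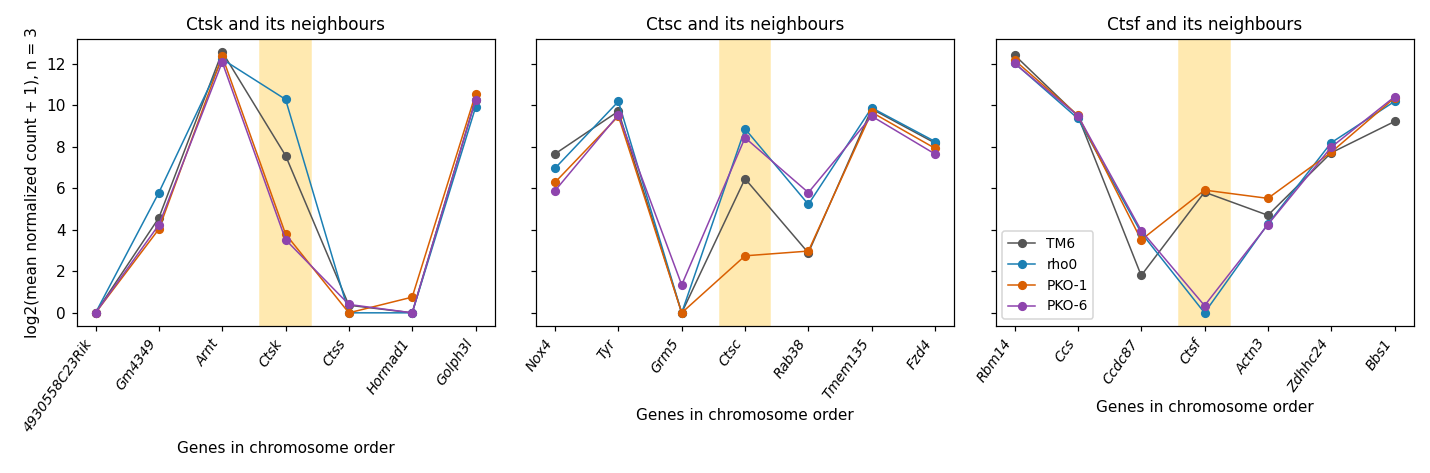
Log2 of the mean normalized count plus 1 (vertical axis, n = 3) of *Ctsk*, *Ctsc* and *Ctsf* (shaded) and of the 3 annotated genes on either side, in chromosome order and not to scale, by line. The lines spread at the shaded genes and also at *Gm4349*, *Nox4*, *Rab38*, *Ccdc87* and *Bbs1*, while *Arnt*, *Golph3l*, *Tmem135* and *Ccs* lay closer together.

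Levels per length compare the genes with one another. In TM6, *Ctsd* led with 250 ± 2.18 TPM, followed by *Ctsb* (126 ± 2.88), *Ctsa* (96.6 ± 0.856), *Ctsl* (91.4 ± 1.8) and *Ctsz* (78.6 ± 1.74), and no neighbours in this order overlapped. The order of PKO-1 also began with *Ctsd* (236 ± 5.58 TPM) and *Ctsb* (148 ± 3.65). *Ctsl* led instead in rho0 (138 ± 3.78 TPM, above *Ctsd* at 110 ± 4.06) and in PKO-6 (233 ± 8.64 TPM, above *Ctsd* at 190 ± 6.62). *Ctsk* was sixth in TM6 (4.12 ± 0.241 TPM) and rho0 (26.5 ± 1.57 TPM), and eighth in PKO-1 (0.263 ± 0.0513 TPM) and PKO-6 (0.223 ± 0.156 TPM). It made up 0.633% of the summed cathepsin TPM in TM6, 5.26% in rho0, 0.0306% in PKO-6 and 0.0341% in PKO-1. The sum was 652 ± 5.81 TPM in TM6, 503 ± 10.4 in rho0, 731 ± 17.6 in PKO-6 and 773 ± 14.7 in PKO-1. The share of *Ctsd* was 38.4% in TM6, 21.8% in rho0, 30.5% in PKO-1 and 26.0% in PKO-6, and that of *Ctsl* 14.0%, 27.5%, 18% and 31.8%.

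**Figure D4:**
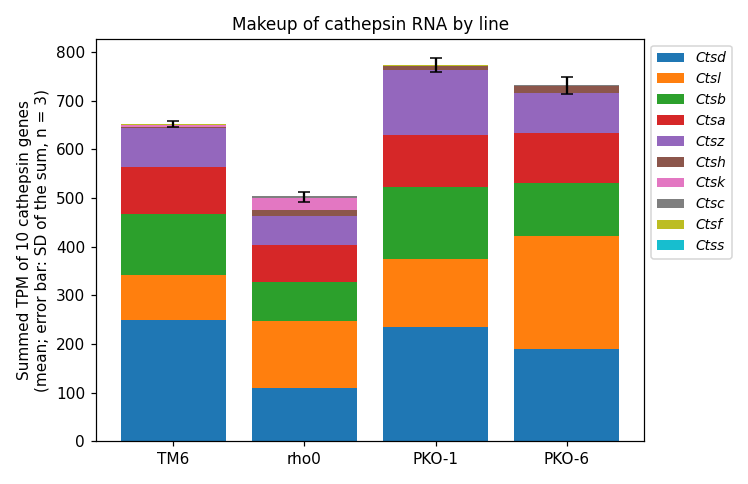
Mean TPM of each cathepsin gene stacked by line (vertical axis, summed TPM from 0; error bars SD of the sum, n = 3). The sum was lowest in rho0 (503) and highest in PKO-1 (773), and the share of *Ctsl* was largest in PKO-6 (31.8%).

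Of the 10 genes, 6 had 1 transcript in the files. *Ctsa* had 2, and the one that starts further upstream took 4.4% ± 1.13 of its counts in TM6, 9.65% ± 0.875 in rho0, 3.11% ± 1.04 in PKO-6 and 2.38% ± 0.0333 in PKO-1 (SD, n = 3). *Ctsc* had a full transcript of 7 exons and a short one of 4 exons that ends at 88292159. The short one took 30.5% ± 1.36 of the counts in TM6, 24.1% ± 1.84 in rho0 and 24.4% ± 5.78 in PKO-6, and as shares of TPM these were 45.2%, 37.5% and 37.7%. PKO-1 had too few counts for a share. The minor transcript of *Ctsh* took 0.703% to 1.74% of its counts on average. RSEM estimates these splits from reads that transcripts share.

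Among 13 other cathepsin genes, 2 were high enough to test. *Ctso*, a cysteine cathepsin, rose in all 3 derived lines, from 64, 62.1 and 41.9 normalized counts in TM6 to 369, 314 and 387 in rho0, 551, 517 and 487 in PKO-1, and 577, 577 and 619 in PKO-6. Its log2 fold change was 2.66 (adjusted p = 1.16e-09), 3.20 (adjusted p = 2.24e-10) and 3.39 (adjusted p = 7.27e-11). *Ctsw*, a cathepsin of lymphocytes, fell from 95.3 ± 15.5 normalized counts in TM6 to 40.2 ± 5.98 in rho0 and 53.7 ± 13.1 in PKO-1, and was at 85.2 ± 22.9 in PKO-6, where it was not called.

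Of 12 cathepsin inhibitors, 6 were tested. In rho0, 0 rose and 3 fell (42.1% of all genes were called), in PKO-1 1 rose and 3 fell (34.3%), and in PKO-6 1 rose and 2 fell (41.3%). Of all genes, 20.7%, 16.4% and 21.9% were called higher and 21.4%, 17.9% and 19.4% lower in the same comparisons. The 3 that fell in rho0 and in PKO-1 include *Ctla2b*, which passed the filter on low counts only through TM6 and PKO-6, where it was high. *Cst3*, the secreted cystatin C, fell in all 3, with log2 fold changes of -1.91 in rho0, -0.68 in PKO-1 and -1.11 in PKO-6. *Cstb*, the cystatin of the cytosol, fell too (-1.08, -0.98 and -0.57). *Cst6* rose in PKO-1 (0.90) and PKO-6 (1.57). *Ctla2b*, which resembles the propeptide of cathepsins, had 0 counts in every library of rho0 and PKO-1, against means of 48.9 ± 8.15 normalized counts in TM6 and 50 ± 5.53 in PKO-6. It has a close copy, *Ctla2a*, so its counts are uncertain.

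All 12 genes that sort, activate or partner cathepsins were tested. In rho0, 2 rose and 3 fell, in PKO-1 4 rose and 2 fell, and in PKO-6 4 rose and 1 fell, beside 42.1%, 34.3% and 41.3% of all genes called, so the list was near the background. *Gnptab* and *Gnptg* encode parts of the enzyme that starts the mannose 6-phosphate tag. *Gnptab* fell in rho0, PKO-1 and PKO-6 (log2 fold changes -0.79, -0.54 and -0.52), while *Gnptg* rose (0.61, 0.58 and 0.64). *Igf2r*, the large receptor for the tag, rose in both clones (0.55 and 0.57), as did *Lgmn*, the protease legumain that processes cathepsins (0.92 and 0.55), and *Tpp1*, a lysosomal peptidase (0.82 and 0.84). *Sort1*, another sorting receptor, fell in rho0 (-0.90) and PKO-1 (-1.13). The median of the 12 was -0.11, 0.10 and 0.29 in the 3 comparisons.

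Of 8 transcription factors linked to cathepsin genes, 5 were tested. Against TM6, 1 rose and 3 fell in rho0, 1 rose and 2 fell in PKO-1, and 1 rose and 2 fell in PKO-6. Of all genes, 42.1%, 34.3% and 41.3% were called in the same comparisons. *Tfeb* and *Tfe3* fell and *Mitf*, their relative, rose in all 3 derived lines. The log2 fold changes of *Tfeb* were -2.58, -1.49 and -1.74 in rho0, PKO-1 and PKO-6, from 739 ± 47.7 normalized counts in TM6 to 124 ± 11.1, 263 ± 12.4 and 222 ± 41.9. Those of *Tfe3* were -0.90, -0.98 and -0.99, and those of *Mitf* 0.69, 1.64 and 1.02. *Nfatc1*, which drives *Ctsk* in osteoclasts, was called in no comparison (0.13, 0.06 and 0.14). *Fos*, a part of AP-1, fell in rho0 (-1.58) and was not called in PKO-1 (-0.47) or PKO-6 (0.70) against TM6. The part of these factors in the cathepsin levels was not tested.

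Of 10 genes for matrix proteins that cathepsin K can cut or that take up collagen, 9 were tested. In rho0, 0 rose and 6 fell, in PKO-1 4 rose and 3 fell, and in PKO-6 1 rose and 6 fell, with medians of -1.63, -0.07 and -2.25. These counts include *Eln*, elastin, as higher in PKO-1 and lower in PKO-6. It passed the filter on low counts only through PKO-1, with means of 4.07 normalized counts in TM6, 17.4 in PKO-1 and 0 in PKO-6. Of all genes, 20.7%, 16.4% and 21.9% were called higher and 21.4%, 17.9% and 19.4% lower in the same comparisons. *Col1a1*, a chain of type I collagen, fell in rho0, PKO-1 and PKO-6 (log2 fold changes -1.56, -0.89 and -2.25), and so did *Bgn*, biglycan (-2.59, -6.44 and -8.83), and *Sparc*, osteonectin (-1.79, -1.09 and -2.33). *Mrc2*, the receptor that takes up collagen, rose in PKO-1 (0.86) and was at -0.40 in rho0 and -0.02 in PKO-6. Some of these genes are also among the fibroblast markers above, whose summed level was lower in rho0 and PKO-6.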

How the data were processed

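RNA of 12 cultures was depleted of ribosomal RNA, made into strand-specific libraries in technical duplicate and sequenced as paired ends. The authors aligned reads with RSEM 1.2.25 and Bowtie2 to RefSeq transcripts of mm10 (GRCm38) and deposited expected counts per transcript and gene, and TPM per transcript. Expected counts (12.5% with decimals) were rounded. Transcript values gave isoform shares and levels per length. The table holds 0 genes encoded by mtDNA.

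edgeR 4.0.16 in R 4.3.3 used filterByExpr (minimum count 10), TMM and the quasi-likelihood test on 4 lines, and p was adjusted over 14026 genes by the Benjamini-Hochberg method. Calls needed an adjusted p under 0.01 with a log2 fold change beyond 0.5 either way. SE is the log2 fold change divided by the root of F. Intervals of ratios are 95% counting intervals. Fits were tested on simulated data. Named genes were the 10 cathepsins, the lists, 3 neighbours per side and the 5 genes most like *Ctsk*. The members and lists were chosen with earlier results of these data known. Alternatives included DESeq2 1.42.0, pooled clones, chromosome medians and omission of single libraries.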

Additional observations from a re-analysis of the deposited data

Results flagged for a closer look

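Differences between the changes of the knockout clones from TM6 were tested as PKO-1 against PKO-6 for each cathepsin. Of 7, 4 passed, beside 29.1% of all tested genes called, and *Ctsf* is given by its counts alone. *Ctsc* differed by -5.86 on the log2 scale, having fallen in PKO-1 and risen in PKO-6. *Ctsf* had a ratio of counts of 191, PKO-1 having 163 and PKO-6 having 1. *Ctsh* and *Ctsl* rose in both clones and by less in PKO-1, with differences of -0.88 and -0.73. *Ctsz* differed by 0.73 and rose in PKO-1, while in PKO-6 it was not called. Groups held 3 libraries, so none was examined for single outlying samples.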

How the results depend on the processing

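Log2 fold changes of the 8 tested cathepsins, 1 value per gene and comparison, kept their direction and their call in 206 of 216 values under other settings. Leaving out single libraries kept them in 383 of 384 values, some of them from omitting a library of a line not compared. The exception there was *Ctsb* between the clones, called at 0.54 without replicate 2 of PKO-6. *Ctsf* is among the 8 and passed the filter only through TM6 and PKO-1, so its unchanged calls do not measure stability. Pooling both clones as 1 group, as the study did, mixed opposite changes. Against TM6, the pooled value was 1.01 for *Ctsc*, -0.90 for *Ctsf* and 0.08 for *Ctsb*, which turned the direction of *Ctsc* and *Ctsf* in PKO-1 and of *Ctsb* in PKO-6, and neither *Ctsc* nor *Ctsf* was then called. *Ctsz*, at 0.52, was not called. *Ctsc* and *Ctsl* lost their call in rho0 as well, at unchanged values of 2.42 and 0.62, and so did *Ctsf*, at 0 counts there. The cathepsins called, *Ctsf* included here and below, were then 3 in rho0 and 2 in the pooled clones, and all genes called for the pooled clones were 3607, against 5799 for PKO-6 alone. With a size threshold of 1, the cathepsins called were 2 in PKO-1 and 2 between the clones, and all genes called were 2944, 2274 and 3038 in rho0, PKO-1 and PKO-6 and 1950 between the clones. By adjusted p alone, 7611 genes were called in PKO-1 and 7014 between the clones. With chromosome medians taken off the log2 fold changes and p kept as it was, *Ctsl* between the clones was at -0.32 and not called. Leaving out single libraries gave 6 to 6, 4 to 4, 4 to 4 and 5 to 6 cathepsins called in rho0, PKO-1, PKO-6 and between the clones, and 5604 to 6299, 4597 to 4888, 5657 to 5962 and 3820 to 4178 genes in all. Library sizes without *Rn45s* moved 4 of 40 mean levels by more than their SD.

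Replicate numbers gave no clear pairing of the libraries. Deviations of same-numbered libraries had correlations of -0.39 to 0.25, beside -0.42 to 0.49 for other pairs. Correlations were over 0.1 in 10 of 18 same-numbered pairs and in 10 of 36 other pairs, and 4 of 12 libraries were most like one of their own number. A replicate block gave 6, 4, 4 and 5 cathepsins called and 5849, 4761, 5776 and 4027 genes in all. Shares of transcripts by counts and by TPM are given beside each other above. Levels under about 3 counts per group limit *Ctss*, and *Ctsf* in rho0 and PKO-6.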
